A study of Rattus norvegicus with 2 samples.

Results

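Stefins and epithelial protease inhibitors were described in rat skin with and without ionising radiation. The group comprised 10 genes: the stefins Stfa3, Stfa2l3, Stfa2l1 and Cstb, the secreted cystatins Cst3 and Cst6, the whey acidic protein (WAP) type inhibitors Wfdc18 and Slpi, and the Kunitz type inhibitors Spint1 and Spint2. They were chosen by inhibitor family and name with their values in these libraries in view, from 22312 genes of the table, so the differences between the libraries below are descriptions and carry no test. Rows with the same symbol were summed; the 10 genes held 11 rows of 22714, Stfa2l1 having 2.

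The irradiated skin came from an area given a single dose of 45 Gy with an electron beam, and the non-irradiated skin from a non-irradiated area. Both libraries were made from total RNA of male Sprague-Dawley rats aged 4 weeks, after removal of ribosomal RNA. There was 1 library per group, so no difference had a replicate check, and the time between irradiation and sampling, the number of animals and any pooling were not stated in the labels. The irradiated library has the title NC, which the labels do not expand; the source label alone puts it in the irradiated group and so sets each direction given here.

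Stefins are small inhibitors that stay inside the cell and block papain-like cysteine proteases, chiefly the lysosomal cathepsins. Stefin A is known in skin from keratinocytes, where it becomes part of the cornified envelope, and in mice several stefin A genes are also known from neutrophils. Type 2 cystatins are secreted inhibitors of the same proteases; Cst3 is made by most cell types, whereas Cst6 (cystatin M/E) is known from the epidermis and hair follicle and also blocks legumain. WAP type and Kunitz type inhibitors act on serine proteases: Slpi blocks neutrophil elastase and cathepsin G, and Spint1 and Spint2 are membrane-bound inhibitors of matriptase, prostasin and hepsin at epithelial surfaces. Wfdc18 is known in mice as an extracellular protease inhibitor of the mammary gland.

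The sequences before the gene starts are shown first for the 4 stefin A type genes with a RefSeq promoter, because these genes lie side by side on chromosome 11 and were nearly absent from the non-irradiated library, and for Wfdc18, which had no reads there. Each sequence runs 5′ to 3′ from 250 bases before to 50 bases after the annotated start, from RefSeq on assembly GRCr8. The positions are chr11:77858820-77859119 (+) for Stfa3, chr11:77950153-77950452 (-) for Stfa2l1, chr11:78093485-78093784 (+) for Stfa2l3, chr11:78125563-78125862 (+) for Csta and chr10:69086069-69086368 (+) for Wfdc18. RefSeq gives the name Stfa2l3 to the gene that the expression table lists as LOC100911790 (stefin-3-like), so that sequence belongs to the LOC100911790 row; the table's own Stfa2l3 row, which has no RefSeq gene ID, lies at the same locus. Capitals in the stefin sequences mark runs of at least 10 bases identical to Stfa3 in a pairwise alignment (in Stfa3, to any of the other 3), and in Wfdc18 a TATAAA stretch.
Stfa3: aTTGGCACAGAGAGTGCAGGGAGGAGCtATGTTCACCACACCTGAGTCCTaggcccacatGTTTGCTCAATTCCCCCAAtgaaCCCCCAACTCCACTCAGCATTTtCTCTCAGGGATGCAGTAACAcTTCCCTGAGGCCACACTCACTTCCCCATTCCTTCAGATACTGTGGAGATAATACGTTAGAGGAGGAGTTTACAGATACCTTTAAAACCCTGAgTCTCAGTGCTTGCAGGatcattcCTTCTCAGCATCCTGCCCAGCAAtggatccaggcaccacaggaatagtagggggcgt
Stfa2l1: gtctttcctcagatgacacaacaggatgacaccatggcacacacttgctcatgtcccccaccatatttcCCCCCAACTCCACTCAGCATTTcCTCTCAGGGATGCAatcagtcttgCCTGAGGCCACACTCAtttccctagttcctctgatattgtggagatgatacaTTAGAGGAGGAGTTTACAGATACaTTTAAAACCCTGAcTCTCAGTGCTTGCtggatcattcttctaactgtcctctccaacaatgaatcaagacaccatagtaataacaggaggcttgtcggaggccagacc
Stfa2l3: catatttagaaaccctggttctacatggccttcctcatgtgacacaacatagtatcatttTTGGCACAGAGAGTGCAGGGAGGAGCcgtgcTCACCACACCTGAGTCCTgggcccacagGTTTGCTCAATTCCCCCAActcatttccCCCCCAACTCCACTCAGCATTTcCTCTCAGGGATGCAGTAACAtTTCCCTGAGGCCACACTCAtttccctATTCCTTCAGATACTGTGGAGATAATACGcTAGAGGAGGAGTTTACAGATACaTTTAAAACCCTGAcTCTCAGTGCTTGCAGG
Csta: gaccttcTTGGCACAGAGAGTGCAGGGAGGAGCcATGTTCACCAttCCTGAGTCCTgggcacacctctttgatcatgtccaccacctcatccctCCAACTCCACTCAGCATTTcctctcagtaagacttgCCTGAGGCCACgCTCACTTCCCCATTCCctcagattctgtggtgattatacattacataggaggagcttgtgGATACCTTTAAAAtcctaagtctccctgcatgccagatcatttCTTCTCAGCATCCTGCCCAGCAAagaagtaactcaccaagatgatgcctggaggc
Wfdc18: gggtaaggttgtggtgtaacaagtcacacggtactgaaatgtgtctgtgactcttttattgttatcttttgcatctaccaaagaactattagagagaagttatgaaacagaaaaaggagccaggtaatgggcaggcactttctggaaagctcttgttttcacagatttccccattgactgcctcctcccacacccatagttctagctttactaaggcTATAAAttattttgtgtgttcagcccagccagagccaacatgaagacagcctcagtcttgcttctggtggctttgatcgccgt

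The stefin A type promoters shared long stretches with that of Stfa3. Capitals covered 240 of the 300 bases in Stfa3, 204 in Stfa2l3, 128 in Csta and 101 in Stfa2l1, and the longest unbroken run shared with Stfa3 was 29 bases in Stfa2l3, 26 in Csta and 23 in Stfa2l1. Over whole alignments, gaps included, Stfa3 was 76.1% identical to Csta, 69.9% to Stfa2l1 and 60.4% to Stfa2l3, where the 2 windows are offset along the shared stretch. The 6 pairs among the 4 stefin A type promoters shown ran from 51.3% to 76.1% identity. The 30 other pairs among all promoters aligned here ran from 39.5% to 51.1%. RefSeq promoters were found by symbol for 8 of the 10 genes, all but Cst6 and Slpi. That of Stfa2l3 belongs by gene ID to the LOC100911790 row, as stated above. Their base composition varied, also within the stefins: the 4 stefin A type promoters held 47.0% to 50.7% G and C and Wfdc18 43.7%, while Cst3 held 58.0%, Cstb 60.3%, Spint2 69.3% and Spint1 70.3%, against a median of 51.7% over 33469 RefSeq promoters. A search of both strands for GGGCGG, the GC box, matched in Cst3, Cstb, Spint1 and Spint2 and in 33.1% of all promoters, with no match in the stefin A type promoters or Wfdc18. TATAAA, the TATA box core, matched in Wfdc18 alone, 33 bases before the start, and in 14.2% of all promoters. TGANTCA, the AP-1 core, matched in Spint1 at position -198 and in Stfa2l1 at position 2 after the start, and in 7.33% of all promoters. CCAAT matched in Stfa3, Cst3, Spint1 and Spint2 and in 37.5% of all promoters. These matches describe letters and not bound sites, and no match to 1 motif overlapped a match to another in these genes.

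Values are given as FPKM, fragments scaled by transcript length and library size, which can be compared between genes, and as estimated reads, the deposited scaled counts divided by the value of 1 read. The estimated depth was 11197484 reads in irradiated and 12649571 reads in non-irradiated skin. A gene was counted as higher or lower when log2((irradiated FPKM + 1)/(non-irradiated FPKM + 1)) passed 2-fold and its mean was at least 1 FPKM; 9743 genes reached that mean. By this rule 945 genes (9.7%) were higher and 149 (1.53%) lower in irradiated skin, and the median log2 ratio was 0.21. Ratios of reads are given with 95% exact Clopper-Pearson intervals, which cover counting error only and compare 2 libraries, not conditions.

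Of the 10 inhibitors, 9 reached the mean of 1 FPKM, and 8 of them were at least 2-fold higher in irradiated skin, none at least 2-fold lower, and Cst3 lay within 2-fold. Slpi, which averaged 0.766 FPKM, was the gene left out. The share of all genes called higher, 9.7%, stands beside this count only as background, since the genes were chosen with these values known. The plot of both levels for each gene shows 9 of the 10 inhibitors with more FPKM in irradiated skin.

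**Figure D1:**
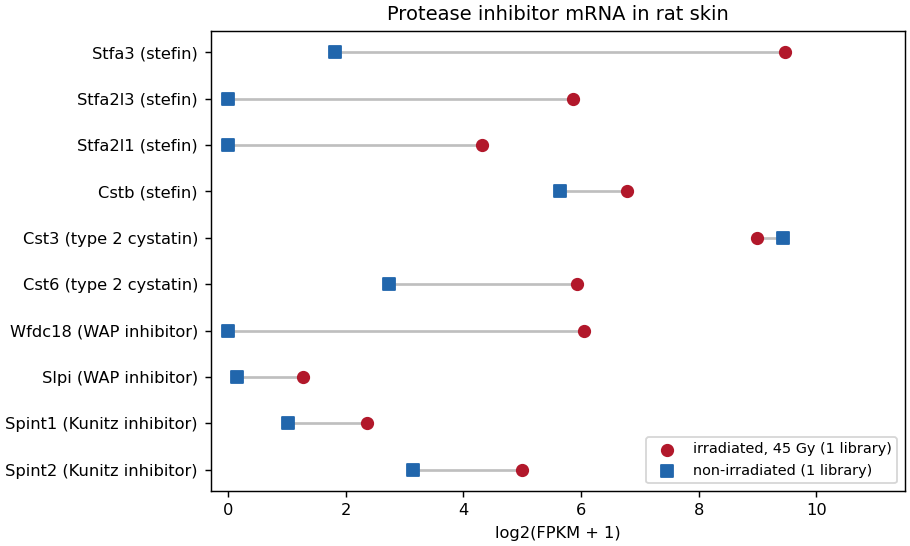
Level of each inhibitor as log2(FPKM + 1) in the irradiated library (red circles) and the non-irradiated library (blue squares), 1 library each, grouped by inhibitor family. Cst3 is the 1 gene whose red circle lies left of its blue square, and Stfa2l3, Stfa2l1 and Wfdc18 sit at 0 in non-irradiated skin.

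Among the stefins, Stfa3 had the most reads in irradiated skin and few in non-irradiated skin. Stfa3 (chr11:70398921-70403785 in the table's coordinates, whose build is not given) stood at 703 FPKM in irradiated skin, from 1957 reads, against 2.51 FPKM in non-irradiated skin, from 8 reads. Its scaled count was 271-fold higher, with a counting interval of 137- to 629-fold, and its log2 FPKM ratio of 7.65 was the highest of the 9743 genes with 1 FPKM added. That order depends on the added constant, since genes at 0 have no upper limit to their ratio: with 0.1 FPKM added, Stfa3 had 8.08, Stfa2l3 9.17 and Wfdc18 9.36. In order of level it was gene 183 of the irradiated library, and it was gene 6687 of the non-irradiated library.

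Both other stefin A type members had reads in irradiated skin alone. Stfa2l3 (chr11:70524198-70566841) had 57.5 FPKM from 83 reads in irradiated skin and was at 0 in non-irradiated skin, a ratio of at least 30.7-fold when 3 reads stand in for the 0 of that library. Such a bound leaves out the counting error of the irradiated library; the lower limit of the 95% exact interval, which covers both, was 24.4-fold. Stfa2l1 (chr11:70484705-70489106) had 18.9 FPKM from 52 reads in irradiated skin and 0 in non-irradiated skin, at least 19.2-fold against 3 reads and with a lower interval limit of 15.1-fold. Its second row was at 0 in both libraries. The stefin A type genes are related members of 1 cluster. How any reads shared between them were counted is not stated, so the split of reads among them is uncertain. The row LOC100911790, at the same locus as Stfa2l3, had 2 reads in non-irradiated skin, so the 0 of Stfa2l3 depends on that split.

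Cstb (stefin B, chr20:13137896-13139938) is the stefin found in nearly all cell types, and its level was already substantial without irradiation. It had 109 FPKM from 541 reads in irradiated skin, against 49.1 FPKM from 276 reads in non-irradiated skin, 2.17-fold in scaled counts with an interval of 1.88 to 2.52. Its log2 ratio of 1.13 lay just past the 2-fold rule and was 0.84 with a trimmed mean scaling of the libraries.

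The read ratios of all 10 inhibitors with their intervals are drawn in the plot of ratios.

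**Figure D2:**
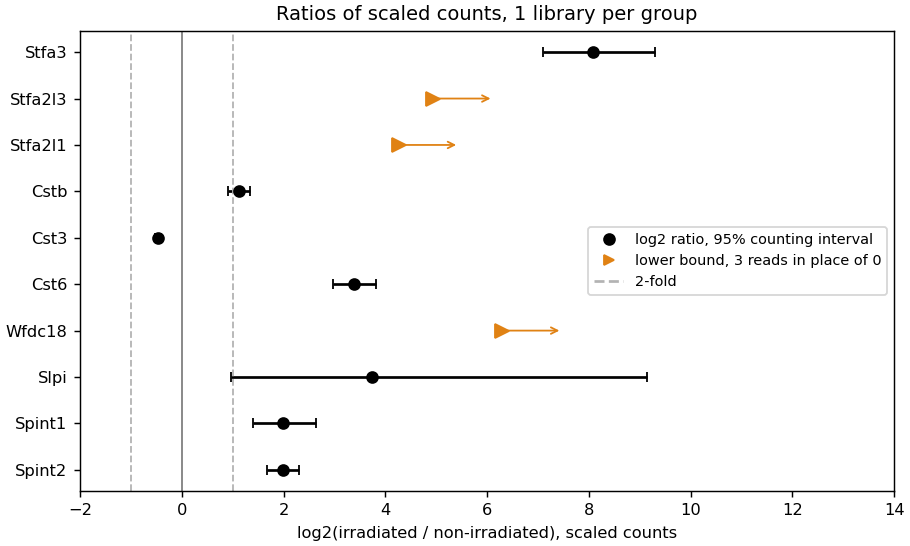
log2 ratio of scaled counts, irradiated over non-irradiated, 1 library per group; black points carry 95% counting intervals, orange triangles are lower bounds with 3 reads in place of 0, and dashed lines mark 2-fold. Cst3 lies below 0, Cstb near 2-fold, and Stfa3 at the right with an interval of 137- to 629-fold.

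The stefin A cluster as a whole was also higher in irradiated skin. Between Casr and Fam162a the table lists 9 rows, of which 6 had reads in irradiated and 3 in non-irradiated skin. They summed to 1048 FPKM and 2554 reads in irradiated skin, against 4.09 FPKM and 12 reads in non-irradiated skin, 236-fold in scaled counts with an interval of 135 to 457. Stfa3 made up 67.1% of the cluster's FPKM in irradiated skin. Csta, stefin A itself, had 24.8 FPKM from 69 reads in irradiated skin and 0.627 FPKM from 2 reads in non-irradiated skin, a ratio of 38.3-fold with an interval of 10.2 to 322. LOC100911790 (stefin-3-like) had 100.004 FPKM from 180 reads in irradiated skin and 0.955 FPKM from 2 reads in non-irradiated skin. The row LOC684499, which the table does not annotate and which was singled out after its values were seen, had 143 FPKM from 213 reads in irradiated skin and none in non-irradiated skin. Stfa3l1, LOC100362978 and the second Stfa2l1 row were at 0 in both libraries.

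The genes on either side of the cluster were level or without reads. Fam162a, a mitochondrial protein gene, stood at 193 FPKM in irradiated skin and 185 FPKM in non-irradiated skin. Casr, the calcium-sensing receptor, was at 0 in both.

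**Figure D3:**
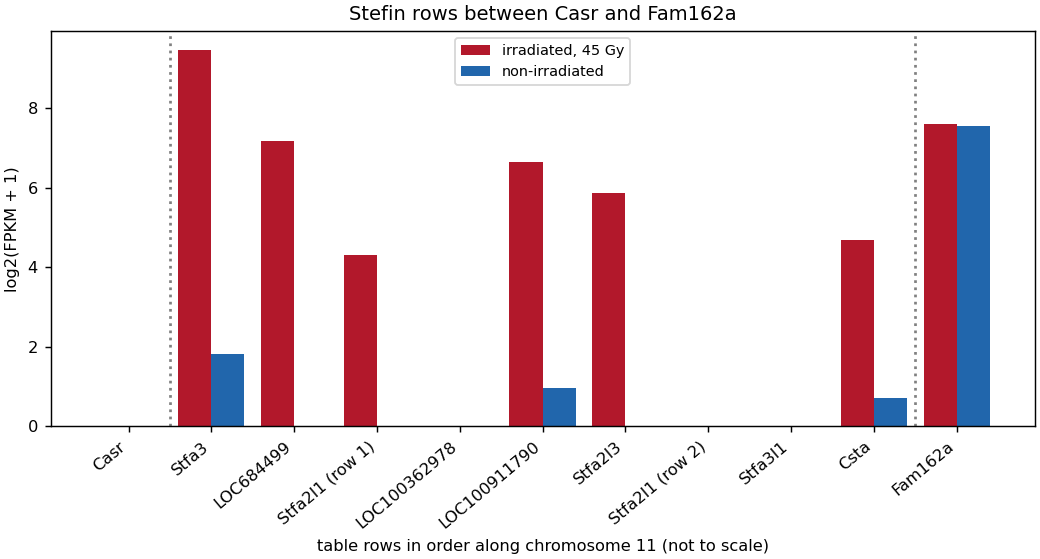
log2(FPKM + 1) of the table's rows along the stefin A cluster of chromosome 11 and its 2 flanking genes, in irradiated (red) and non-irradiated (blue) skin, 1 library each; dotted lines separate the flanks and distances are not to scale. The 6 rows with red bars between the dotted lines have small blue bars or none, while the bars of Fam162a are nearly equal.

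The 2 type 2 cystatins differed in opposite directions. Cst6 (chr1:227656558-227658267) had 60.1 FPKM from 490 reads in irradiated skin, against 5.68 FPKM from 52 reads in non-irradiated skin, 10.4-fold in scaled counts with an interval of 7.84 to 14.2. Cst3 (cystatin C, chr3:149628697-149632565) had 505 FPKM from 3412 reads in irradiated skin, against 687 FPKM from 5221 reads in non-irradiated skin. That is 0.725-fold, with an interval of 0.694 to 0.757, so the gap exceeded counting error but stayed within the 2-fold rule, and its log2 ratio of -0.44 was negative in all 11 other settings tried. Cst3 ranked 223 by level in irradiated skin and 171 in non-irradiated skin.

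Both WAP type inhibitors were nearly or wholly without reads in non-irradiated skin. Wfdc18 (chr10:70632469-70634624) had 65.5 FPKM from 212 reads in irradiated skin and 0 in non-irradiated skin, at least 78.4-fold against 3 reads and with a lower interval limit of 63.2-fold. Slpi (chr3:166981038-166983491) was scarce in both libraries, with 1.43 FPKM from 12 reads in irradiated skin and 0.106 FPKM from 1 read in non-irradiated skin. Its ratio of 13.3-fold had an interval of 1.97 to 569, too wide to set its size. Milk protein genes, taken as markers of mammary epithelium, were at or near 0. Of 6, 4 were at 0 in irradiated and all 6 in non-irradiated skin, with a sum of 0.524 FPKM in irradiated skin. Such genes mark milk production and can be silent in a gland of young male rats. Their values therefore do not tell whether mammary epithelium was present, and the source of Wfdc18 was not tested.

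Spint1 and Spint2 differed by almost the same factor. Spint2 (chr1:88379999-88402455) had 31.0 FPKM from 389 reads in irradiated skin, against 7.87 FPKM from 109 reads in non-irradiated skin, 3.96-fold with an interval of 3.19 to 4.94. Spint1 (chr3:117599949-117612634) had 4.11 FPKM from 108 reads in irradiated skin and 1.03 FPKM from 30 reads in non-irradiated skin, 3.99-fold with an interval of 2.64 to 6.20. Its log2 FPKM ratio of 1.33 is smaller because 1 FPKM was added to a low level, and it was 0.60 with 5 FPKM added.

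The make-up of the inhibitor mRNA differed between the libraries. The 10 genes summed to 1556 FPKM in irradiated skin and 753 FPKM in non-irradiated skin. Cst3 held 32.5% of that sum in irradiated skin and 91.2% in non-irradiated skin; by reads its share was 47.0% (95% exact interval 45.9% to 48.2%) in irradiated and 91.6% (90.9% to 92.4%) in non-irradiated skin. Stfa3 alone held 45.2% of the sum in irradiated and 0.333% in non-irradiated skin. By reads, which are not scaled by length, it held 27.0% (25.95% to 28.01%) in irradiated and 0.140% (0.0606% to 0.277%) in non-irradiated skin, so Stfa3 led in irradiated skin by FPKM and Cst3 by reads. With Stfa2l3 and Stfa2l1 the stefin A type members reached 50.1% of FPKM and 28.8% of reads in irradiated skin. Cstb held 6.99% of FPKM in irradiated and 6.52% in non-irradiated skin, and by reads 7.46% (6.86% to 8.08%) in irradiated and 4.84% (4.302% to 5.435%) in non-irradiated skin.

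**Figure D4:**
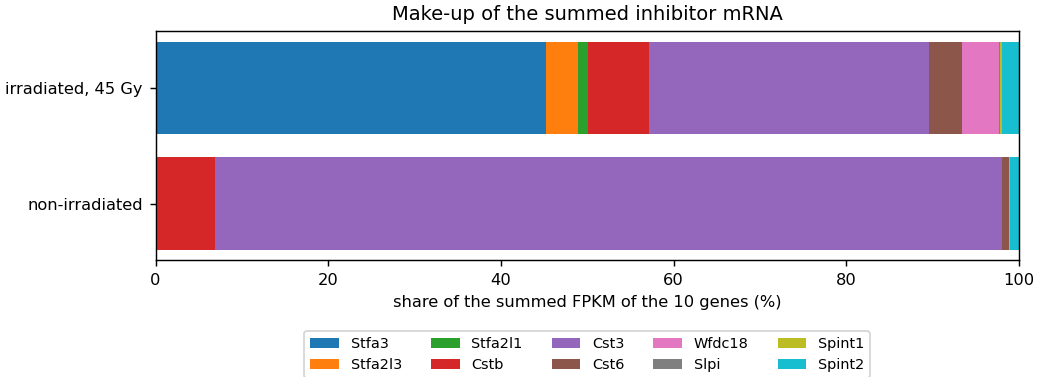
Share of each inhibitor in the summed FPKM of the 10 genes, in percent, for the irradiated library (upper bar) and the non-irradiated library (lower bar). Cst3 fills 91.2% of the lower bar and 32.5% of the upper one, where Stfa3 takes 45.2%.

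Markers of epidermis and skin appendages were higher in the same library, and counts cover the listed genes that were in the data and passed the filter. Of 10 differentiating keratinocyte markers listed, 7 were in the data, as were 8 of 9 hair follicle and 7 of 9 macrophage markers. All 8 sebaceous gland markers were in the data, but Plin5, with 0.685 FPKM in irradiated and 0.451 FPKM in non-irradiated skin, fell below the filter. All 8 basal keratinocyte markers had reads in both libraries and summed to 1171 FPKM in irradiated and 67.4 FPKM in non-irradiated skin. Of the 7 that passed the filter, 6 were higher by the 2-fold rule, with a median log2 ratio of 2.77; Krt14, a keratin of the basal layer, had 618 FPKM in irradiated and 11.99 FPKM in non-irradiated skin. Differentiating keratinocyte markers summed to 2005 FPKM in irradiated and 136 FPKM in non-irradiated skin and were higher in 6 of 6. All 8 hair follicle markers and 7 of 7 sebaceous gland markers were higher too, with medians of 1.77 and 2.61. Macrophage markers lay within 2-fold in 7 of 7, with sums of 235 FPKM in irradiated and 246 FPKM in non-irradiated skin. Fibroblast markers were within 2-fold in 7 of 8, the other being lower, with a median of -0.57. Both libraries were rich in skeletal muscle mRNA: 8 muscle markers summed to 255021 FPKM in irradiated and 271185 FPKM in non-irradiated skin. Of these 8, Myh1 and Mb were higher, with log2 ratios of 1.29 and 1.12, and 6 were within 2-fold; with trimmed mean scaling none was higher. In bulk skin, fewer cells of a type and less RNA per cell cannot be told apart. The part of epidermal content in the inhibitor values was not tested.

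Set against the keratinocyte markers, the inhibitors did not keep a common ratio. Per 100 FPKM of the summed basal keratinocyte markers there were 60.1 FPKM of Stfa3 in irradiated and 3.72 FPKM in non-irradiated skin, so Stfa3 was higher on this scale also. Cst6 was closer to even, with 5.13 FPKM in irradiated and 8.44 FPKM in non-irradiated skin. On the same scale Spint2 had 2.65 FPKM in irradiated and 11.7 FPKM in non-irradiated skin, and Cstb 9.29 FPKM in irradiated and 72.9 FPKM in non-irradiated skin. Wfdc18 had 5.60 FPKM in irradiated skin and none in non-irradiated skin. The differentiating keratinocyte markers gave the same order of libraries for each of these genes. A difference on this scale depends on which markers stand for the epidermis.

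Neutrophils, the other cells known for stefin A genes in mice, were checked in the same way. Of 11 markers, 7 were at 0 in irradiated skin and 7 in non-irradiated skin, among them Mpo, Elane and Ltf in both. These granule protein genes are transcribed mainly in precursor cells, so their values do not tell whether mature neutrophils were present. Of the receptor genes on the list, Cxcr2 was at 0 in both libraries. Csf3r had 0 reads in irradiated and 2 reads in non-irradiated skin. S100a8 and S100a9, which keratinocytes can make as well, carried nearly all of the list. They had 173 and 92.5 FPKM in irradiated skin and 7.78 and 8.41 FPKM in non-irradiated skin. Only these 2 passed the filter, and both were higher by the 2-fold rule, with a median log2 ratio of 3.81. The whole list summed to 266 FPKM in irradiated and 16.4 FPKM in non-irradiated skin. The part of neutrophils in the inhibitor values was not tested.

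Genes whose levels in the 2 libraries lay nearest to those of an inhibitor, by distance in log2(FPKM + 1), were named as a description over 2 points each. For Stfa3 these were Krt14, at a distance of 1.898, and Fxyd3, at 2.65, so no gene had a closely similar pair of levels. The nearest to Cst6 were Sbsn (suprabasin, a product of differentiating keratinocytes) and Mgst1, and those to Cst3 were Chchd10 and Sod1. Stfa2l1 lay nearest to Kng2 and Alb, and Wfdc18 to Apoc1 and Stfa2l3, all of which were at 0 in non-irradiated skin.

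The cysteine proteases that stefins and cystatins inhibit were nearly level. All 9 that passed the filter lay within 2-fold, with a median log2 ratio of -0.01 against 0.21 over all genes. Together the list summed to 338 FPKM in irradiated and 363 FPKM in non-irradiated skin. Ctsb (cathepsin B) had 114 FPKM in irradiated and 94.1 FPKM in non-irradiated skin. Ctsl (cathepsin L), the lowest by ratio, had 49.1 FPKM in irradiated and 78.3 FPKM in non-irradiated skin, and Ctsc, the highest, had 17.6 FPKM in irradiated and 10.9 FPKM in non-irradiated skin.

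The serine proteases and partners of Spint1 and Spint2 were more varied. Of the 5 that passed the filter, 3 were higher and 2 within 2-fold, with a median of 1.21; the higher count ran from 1 with a mean of at least 5 FPKM to 5 on scaled counts. The 3 were St14, Epcam and Prss22, an epithelial serine protease with 4.56 FPKM in irradiated and 0.263 FPKM in non-irradiated skin. St14, which encodes matriptase and was added here as the chief target of both inhibitors, had 4.23 FPKM from 157 reads in irradiated and 1.26 FPKM from 52 reads in non-irradiated skin. Prss8 (prostasin), added for the same reason, had 2.93 FPKM in irradiated and 1.04 FPKM in non-irradiated skin. Its log2 ratio of 0.95 fell within the 2-fold rule because 1 FPKM was added to a low level. In scaled counts Prss8 was 2.81-fold higher in irradiated skin, with an interval of 1.76 to 4.62. Epcam, an epithelial adhesion protein that matriptase cleaves, had 22.6 FPKM in irradiated and 2.47 FPKM in non-irradiated skin. Hpn (hepsin) ran the other way, with 3.09 FPKM in irradiated and 5.65 FPKM in non-irradiated skin, within 2-fold.

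Proteases of leukocytes that Slpi can block gave 1 measurable gene, the mast cell chymase Cma1, with 2.21 FPKM in irradiated and 21.4 FPKM in non-irradiated skin. It is itself a mast cell marker, and the 8 mast cell markers summed to 4.11 FPKM in irradiated and 29.0 FPKM in non-irradiated skin. The epidermal kallikreins, serine proteases that shed the outermost skin cells, were scarce. Of 11 in the data, 8 had reads and 2 passed the filter, both through their level in irradiated skin alone. Klk6 had 7.22 FPKM in irradiated and 0.159 FPKM in non-irradiated skin, and Klk7 had 2.50 FPKM in irradiated skin and 0 in non-irradiated skin. Both were higher by the 2-fold rule, which for such genes was nearly set by the filter. The count was 1 with 5 FPKM added and 5 without the filter.

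Other inhibitor families were counted from lists chosen with earlier results of these data known. Of 6 epithelial clade B serpins, 4 were higher and 2 within 2-fold, with a median log2 ratio of 1.53. The count was 1 with 5 FPKM added and 6 on scaled counts, and the median was 0.65 without the filter. Serpinb5 (maspin), a serpin of epithelial cells, had 565 reads in irradiated and 100 reads in non-irradiated skin, whereas Serpinb6 had 45.9 FPKM in irradiated and 65.4 FPKM in non-irradiated skin. Of 4 other WAP domain genes, 2 were higher and 2 within 2-fold. Wfdc2 and Wfdc21, the higher ones, rested on 15 and 6 reads in irradiated skin and none in non-irradiated skin, and on scaled counts no gene of this list was counted as higher. The Kazal inhibitor Spink5, which blocks epidermal kallikreins, had 1.85 FPKM in irradiated and 0.432 FPKM in non-irradiated skin. Its log2 ratio was 0.99 with 1 FPKM added to these low levels. In scaled counts Spink5 was 4.38-fold higher in irradiated skin, with an interval of 2.65 to 7.55.

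Among other cystatins, 5 of 6 were higher, with a median of 1.86, or 1.62 with 3 reads in place of 0. The median ran from 0.61 with 5 FPKM added to 4.78 with 0.1 FPKM added, and 2 genes were higher under a mean of at least 5 FPKM. Besides Csta, the higher genes were Kng2, Kng1l1, Ahsg and Fetub, plasma proteins made chiefly by the liver, named after their values were seen except for Kng2. Kng2 had 18.5 FPKM from 33 reads in irradiated skin and 0 in non-irradiated skin. Liver products stood out in other families too. Of 6 other Kunitz genes 2 were higher and 4 within 2-fold, and of 7 secreted serpins 2 were higher, 1 lower and 4 within 2-fold. Ambp, the one Kunitz gene of the list made chiefly by the liver, had 5.94 FPKM in irradiated skin and 0 in non-irradiated skin, and the serpin Serpina1 had 11.97 FPKM in irradiated and 0.0634 FPKM in non-irradiated skin. Markers of hepatocytes, a list chosen after these values were seen, all had reads in irradiated skin and summed to 121 FPKM there, against 3.68 FPKM in non-irradiated skin, where 11 of 15 were at 0. Alb (albumin) had 20.8 FPKM from 467 reads in irradiated skin and 0 in non-irradiated skin. Without the liver products, 1 of 2 other cystatins was higher (Csta), 1 of 5 other Kunitz genes (Col7a1), and none of 5 secreted serpins. Of those 5, Serping1 (the C1 inhibitor) was lower, with 12.5 FPKM in irradiated and 26.1 FPKM in non-irradiated skin, and 4 were within 2-fold. Serping1 is a plasma protein that the liver makes too, but it was not set apart with the liver products. The liver products were set apart after values were seen, and each one left out that passed the filter was higher. The smaller counts without them therefore follow from that choice and carry no test. Stfa2l3, Stfa2l1 and Wfdc18 had 0 reads in non-irradiated skin, as Kng2, Ambp, Alb and the other hepatocyte markers at 0 did, and the part of liver-type RNA in their values was not tested.

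**Figure D5:**
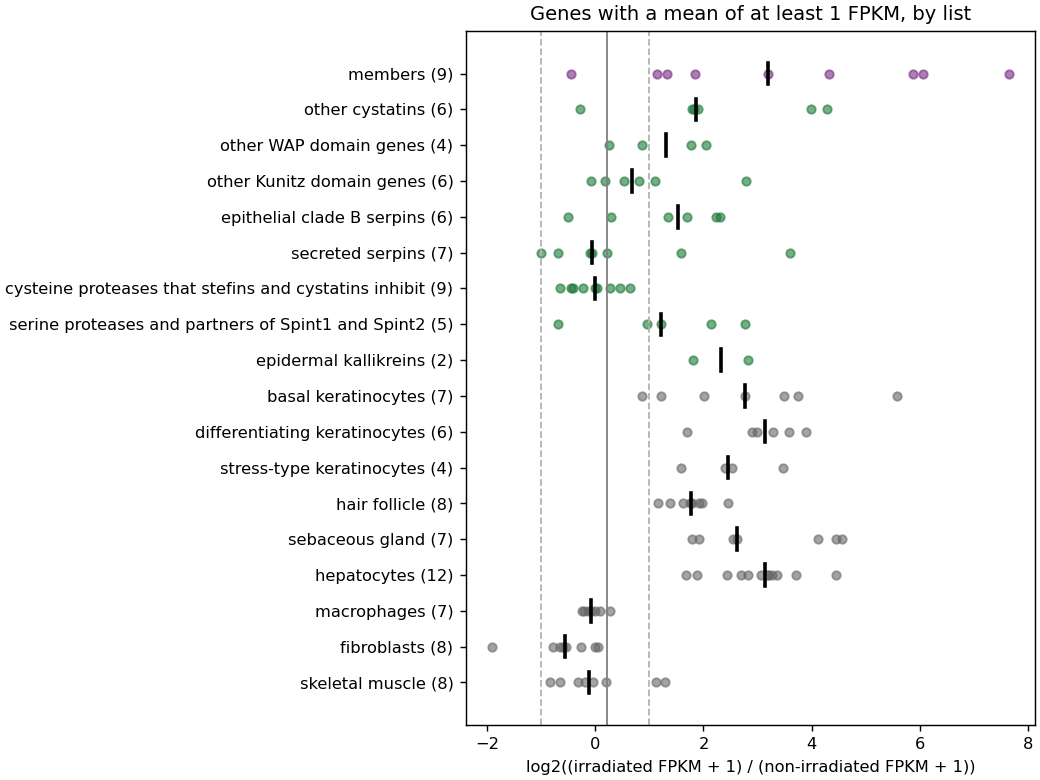
log2((irradiated FPKM + 1)/(non-irradiated FPKM + 1)) of each gene with a mean of at least 1 FPKM, by list (number of genes in parentheses), for the inhibitors (purple), other inhibitors and proteases (green) and cell type markers (grey); black bars are medians, the solid line is the median of all genes at 0.21 and dashed lines mark 2-fold. The inhibitors spread from -0.44 to 7.65, and the cysteine proteases lie within 2-fold.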

How the data were processed

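RNA was measured in 2 skin libraries, 1 per group. Per the labels' protocols, ribosomal RNA was depleted with Ribo-Zero before TruSeq Stranded Total RNA libraries were sequenced by Illumina HiSeq. Cufflinks, Cuffdiff, HISAT2 2.0.4 and cutadapt 1.9.3 are named, with no roles, per the submitters' processing notes; the genome build, the annotation and the treatment of shared reads were not given in the sources used here. Per the file headers, the authors deposited an FPKM value and a count value for each gene and library. These deposited counts are a scaled signal, not whole reads: 97.7% of values above 0 in irradiated and 98.0% in non-irradiated skin were whole multiples of 1.05 and 0.951, within 0.01 of a read for low values, and division by these steps gave the estimated reads. FPKM summed to 1017836 in irradiated and 1002194 in non-irradiated skin. No table column of a sample was left unused (0).

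From these values, log2 ratios with 1 FPKM added, counts past 2-fold, shares, exact intervals and promoter alignments were computed with Python 3.11.15, numpy 2.4.6, pandas 2.3.3, scipy 1.17.1 and Biopython 1.88, and figures with matplotlib 3.10.9. The log2 ratio with its 2-fold rule, the value of 1 read and the interval of a read ratio were tested on simulated data. Shares and promoter alignments were not. Intervals treat reads as independent, which PCR copies are not. No p-value was computed and no count model was run. The genes, lists and rules were chosen with earlier results of these data known. Text names all 10 inhibitors, the stefin A type rows, of each list the 2 genes with the largest absolute ratio and the 2 with the highest mean, and the 2 genes nearest to each inhibitor; some genes that this rule names are left out, and additions are stated. Of 22714 rows, 2742 share a locus with another row, which makes their values uncertain. Alternatives covered the added constant, the filter, 4 scalings, the scaled counts, values at 0 and shared symbols.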

Additional observations from a re-analysis of the deposited data

How the results depend on the processing

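With 1 library per group no replicate could be left out, and no paired analysis was possible because each group has 1 library. In the FPKM analysis 8 of 9 inhibitors measured were at least 2-fold higher. Across 11 alternative settings 7 to 9 were, of 8 to 10 measured, and none was at least 2-fold lower. The 9 came without the filter on low values, where all 10 were counted, Slpi among them. In that setting 1151 of all 16140 genes with reads were higher. Cstb dropped out when the median ratio was set to 0 and with trimmed mean scaling, and Spint1 with 5 FPKM added and under a mean of at least 5 FPKM, which its level does not reach. The number of all genes at least 2-fold higher was 945 of 9743 measured. Of the same 9743 it was 1562 with 0.1 FPKM added, 266 with 5 FPKM added and 674 with the median ratio set to 0. It was 321 of 5406 with a mean of at least 5 FPKM, 1759 of 11130 on scaled counts and 609 of 9447 with trimmed mean scaling. The number at least 2-fold lower was 149 of 9743. Of the same 9743 it was 252 with 0.1 FPKM added, 48 with 5 FPKM added and 266 with the median ratio set to 0. It was 84 of 5406 with a mean of at least 5 FPKM and 286 of 9447 with trimmed mean scaling. Trimmed mean scaling moved the median log2 ratio of all genes to -0.05, against 0.21. Among the ratios of the inhibitors and the medians of the lists, none past 2-fold changed sign. The sign was not followed for each of the other genes. Depth limits Slpi most, with 12 reads in irradiated and 1 in non-irradiated skin. The causes of these shifts were not tested.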

Other observations

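Inhibitors were also taken by the table's own functional annotation in place of gene names. Of 37 genes annotated as inhibitors of cysteine-type endopeptidases, 14 reached a mean of 1 FPKM; 11 of these were higher by the 2-fold rule in irradiated skin, 3 were within 2-fold and none was lower, with a median log2 ratio of 1.97, or 1.62 with 3 reads in place of 0. Of 95 annotated as inhibitors of serine-type endopeptidases, 28 reached that mean; 11 were higher, 16 within 2-fold and 1 lower, with a median of 0.67, against 0.21 over all genes. Pebp1, a kinase-regulating protein with that annotation, had 252 FPKM in irradiated and 236 FPKM in non-irradiated skin. Serpinf1, a secreted serpin without protease inhibitor activity, had 58.8 FPKM in irradiated and 95.6 FPKM in non-irradiated skin. The annotation lists hold several of the 10 inhibitors and liver products and are not independent of the counts in the results.

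Stress-type keratinocyte markers, which mark wounded or rapidly dividing epidermis, were higher in 4 of 4, with a median of 2.46. The list named 7, of which these 4 were among the genes of the data. Sprr1a rested on 7 reads in irradiated skin and 0 in non-irradiated skin. The count was 3 with 3 reads in place of 0 and 2 with a mean of at least 5 FPKM. Krt17 had 306 FPKM in irradiated and 26.8 FPKM in non-irradiated skin, and Fabp5 had 878 FPKM in irradiated and 151 FPKM in non-irradiated skin.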
